A study of Mus musculus with 8 samples.

Results

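Pancreatic beta cells keep a small group of otherwise widely used genes at very low activity, and 10 of these genes were examined in Beta-TC6, an insulin-secreting tumour line from mouse. They were Ldha, Slc16a1, Hk1, Hk2, Oat and Acot7, which encode metabolic proteins, and Pdgfra, Igfbp4, Cxcl12 and Smad3, which encode signalling proteins. The genes were given as a named list and all 10 matched the RefSeq gene table, which held 21887 protein-coding genes on the autosomes and sex chromosomes. Chromatin immunoprecipitation followed by sequencing (ChIP-seq) had been done for 6 targets, with 1 library each. They were the factors BMAL1, CLOCK and PDX1, the histone modifications H3K4me2 and H3K27ac, and the histone variant H2A.Z. All libraries came from the same line at confluence, with no treatment, genotype or time series in the labels, so no condition was compared. No library had a replicate, and therefore no difference below carries a test. Every peak or interval whose centre lay inside the gene span or within 50 kb of it was taken from each of the 6 deposited lists.

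A beta cell couples insulin release to blood glucose by sending most pyruvate to the mitochondria. High-affinity hexokinases would phosphorylate glucose even when it is low. Lactate dehydrogenase A and the lactate and pyruvate carrier MCT1 would divert pyruvate or let in exercise-derived pyruvate. These are the textbook reasons why these genes are called disallowed. BMAL1 and CLOCK are partner transcription factors of the circadian clock that bind the E-box CACGTG, and PDX1 is a homeodomain factor of beta-cell identity. H3K4me2 marks promoters and enhancers whether or not they are active, H3K27ac marks active ones, and H2A.Z is a histone variant found at gene starts.

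The BMAL1 library was the smallest, at 12892080 tags, and the H3K4me2 library the largest, at 26678241, with 13430083 for H3K27ac. The normalized tag count, the signal given below, is the number of tags in a peak scaled to 10000000 tags per library. A region with fewer than 4 times the tags of the input did not enter a list, so where no entry is listed a weaker signal may have gone undetected. RNA was not measured in these libraries, and the silence of the genes was itself not measured. As a check of the line, 15 of 16 beta-cell identity genes had H3K27ac within 1 kb of a start. None of 6 fibroblast and stellate, 4 endothelial, 4 immune and 4 acinar marker genes had it, while 2 of 4 alpha-cell marker genes, Gcg and Irx2, did.

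The promoters that carry the observations on Slc16a1, Ldha and Hk1 are printed here, 5′ to 3′, from 250 bases before to 50 after the annotated start, from RefSeq (GRCm38.p6, the coordinates of mm10). In the first pair capitals mark each E-box CACGTG, since one lies in a CLOCK peak and 2 do not. In the second pair capitals mark each CG dinucleotide, since the 2 starts of Hk1 differ in them and in H3K4me2. They lie at chr3:104638414-104638713 (plus strand), chr7:46845554-46845853 (plus strand), chr10:62379859-62380158 (minus strand) and chr10:62340372-62340671 (minus strand).
Slc16a1: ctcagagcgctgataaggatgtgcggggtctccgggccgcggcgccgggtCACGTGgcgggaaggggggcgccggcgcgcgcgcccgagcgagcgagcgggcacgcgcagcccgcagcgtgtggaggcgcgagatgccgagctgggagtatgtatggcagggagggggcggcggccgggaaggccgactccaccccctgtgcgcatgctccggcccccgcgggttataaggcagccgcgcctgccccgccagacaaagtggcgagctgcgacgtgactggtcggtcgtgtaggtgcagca
Ldha, first start: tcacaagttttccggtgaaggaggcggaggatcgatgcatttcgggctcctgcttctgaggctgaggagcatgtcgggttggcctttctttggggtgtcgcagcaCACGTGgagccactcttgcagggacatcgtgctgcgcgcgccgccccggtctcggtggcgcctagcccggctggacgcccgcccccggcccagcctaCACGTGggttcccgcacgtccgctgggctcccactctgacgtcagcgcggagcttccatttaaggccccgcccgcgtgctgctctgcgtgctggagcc
Hk1, first start: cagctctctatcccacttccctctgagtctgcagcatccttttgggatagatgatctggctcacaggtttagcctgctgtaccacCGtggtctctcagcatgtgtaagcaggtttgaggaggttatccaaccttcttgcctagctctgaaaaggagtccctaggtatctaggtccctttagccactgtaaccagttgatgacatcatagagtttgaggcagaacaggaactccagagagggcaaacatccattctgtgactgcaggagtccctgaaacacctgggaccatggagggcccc
Hk1, second start: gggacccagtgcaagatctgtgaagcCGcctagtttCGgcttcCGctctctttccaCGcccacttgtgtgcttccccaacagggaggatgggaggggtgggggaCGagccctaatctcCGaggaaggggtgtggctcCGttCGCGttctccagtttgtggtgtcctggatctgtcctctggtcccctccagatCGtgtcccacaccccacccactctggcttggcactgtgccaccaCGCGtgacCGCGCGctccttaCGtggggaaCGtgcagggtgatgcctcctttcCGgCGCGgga

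The starts of these genes mostly carried H3K4me2 and lacked H3K27ac. H3K4me2 lay within 1 kb of an annotated start in 8 of the 10 genes (80.0%, against 56.2% of all protein-coding genes). H3K27ac lay there in 1 of the 10, Oat (10.0%, against 40.0% of all protein-coding genes). H2A.Z lay there in 4 of the 10, Ldha, Igfbp4, Cxcl12 and Smad3 (40.0%, against 33.5%). The combination of H3K4me2 without H3K27ac was found in 7 of the 10, Ldha, Slc16a1, Hk1, Hk2, Igfbp4, Cxcl12 and Smad3 (70.0%, against 19.4% of all protein-coding genes). Of the 8 genes with H3K4me2 at a start 1 also had H3K27ac there, against 65.4% of all 12310 protein-coding genes with H3K4me2 at a start. Adding H2A.Z, the same 4 genes had H3K4me2 and H2A.Z without H3K27ac (40.0%, against 10.3%). Acot7 and Pdgfra had none of these marks within 1 kb of a start.

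**Figure D1:**
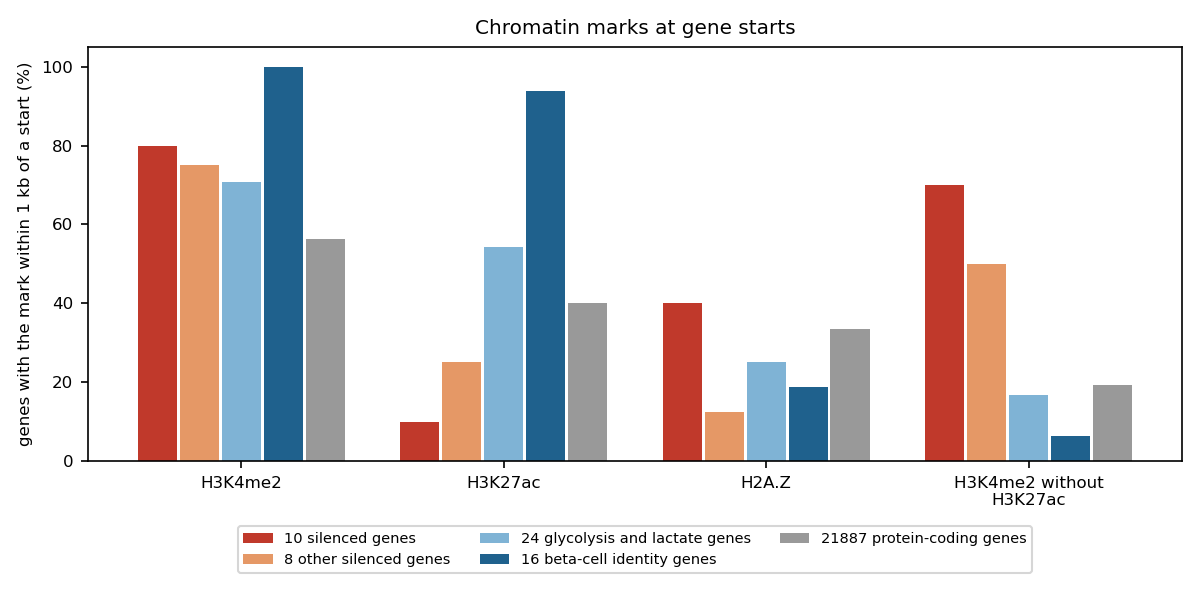
Share of genes (%) with H3K4me2, H3K27ac, H2A.Z, or H3K4me2 without H3K27ac within 1 kb of an annotated start, for the 10 genes and 4 other sets; bars are shares in 1 library per mark, without error bars. The 10 genes reach 80.0% for H3K4me2 and 10.0% for H3K27ac, against 100% and 93.8% for the 16 beta-cell identity genes and 56.2% and 40.0% for all protein-coding genes.

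Other gene sets, set beside these without a test, gave different mixtures of the marks. Of 8 further genes known as low in beta cells, 6 had H3K4me2 at a start and 2 had H3K27ac, so that 4 had H3K4me2 without H3K27ac. These were Rest, Cat, Yap1 and Mgst1, named after their values were seen. The largest summed H3K27ac in their windows was at Maf, a bZIP factor gene (1859.9), and Zfp36l1, an RNA-binding protein gene (539.1). Of 24 genes of glycolysis and lactate handling, which exclude the 10, 17 had H3K4me2 and 13 had H3K27ac. The enolase genes Eno1 (2901.6) and Eno2 (1765.5) led this list in summed H3K27ac. Of 20 partners of the signalling genes (ligands, receptors, binding proteins and SMADs), 13 had H3K4me2 and 7 had H3K27ac. Their largest sums were at Igf2 (2125.8), whose window shares its intervals with that of Ins2, and at Smad7, an inhibitory SMAD gene (744.5). All 16 beta-cell identity genes had H3K4me2 and 15 had H3K27ac, with the largest sums at the neighbouring channel genes Abcc8 (8511.5) and Kcnj11 (7187.6).

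Whether acetylation could have been seen at each start depended on the input, because an H3K27ac interval had to exceed it 4 times. Over the bases of the H3K4me2 interval at each start, the least H3K27ac that would pass this requirement was computed from the input tags there. The separate threshold of 11 tags for H3K27ac was not part of the computation, so a low limit may overstate what was detectable. The limit was 11.5 normalized tags per kb at Hk2, 26.1 at Smad3, 28.3 at Cxcl12 and 29.1 at Hk1. It was 46.8 at Slc16a1, 52.8 at Igfbp4 and 54.6 at Ldha. The 8044 H3K27ac intervals that touched the 1-kb surroundings of a gene start had a median of 81.7 normalized tags per kb, with a 10th percentile of 34.1 and a 90th percentile of 167. All 7 limits, as computed, lay below that median, and 4 of them below the 10th percentile. They hold for the bases of the H3K4me2 interval, and an H3K27ac interval could cover others. At Oat the same computation gave 44.4 and 40.8 over its 2 H3K4me2 intervals. Its listed H3K27ac interval had 100 normalized tags per kb at 4.64 times the input, so the limit over its own bases was higher. The 7 limits may therefore be too low, and their place below the median is uncertain. The listed intervals had themselves passed the requirement of 4 times the input, so weaker acetylation is missing from this distribution. At Ldha, Slc16a1 and Igfbp4 weaker acetylation within the range of listed intervals would not have been detectable.

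**Figure D2:**
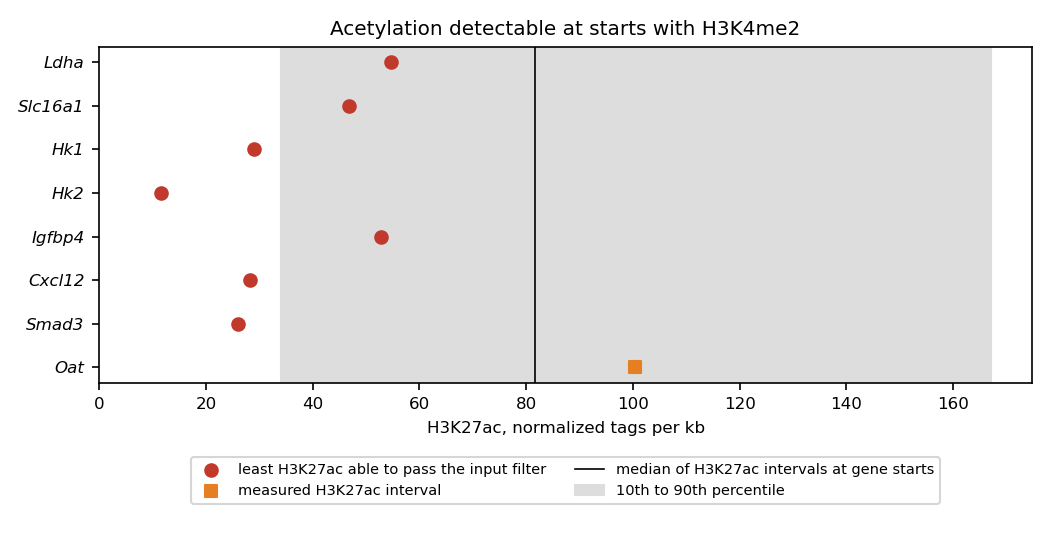
Normalized H3K27ac tags per kb (linear axis) that would just pass the requirement of 4 times the input at the 7 starts with H3K4me2 and no H3K27ac (circles), and the measured interval at the Oat start (square, 100 normalized tags per kb). The line is the median (81.7) and the grey band the 10th to 90th percentile (34.1 to 167) of H3K27ac intervals at gene starts. Limits run from 11.5 at Hk2 to 54.6 at Ldha. They were computed over the bases of the H3K4me2 interval and may be too low for an H3K27ac interval covering other bases.

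Ldha encodes the lactate dehydrogenase subunit that favours the formation of lactate (chromosome 7, 46842274 to 46855627, plus strand). Its start carried an H3K4me2 interval at 46845849 to 46847044 with 67.8 normalized tags, rank 11132 of 41140 intervals by that measure. An H2A.Z interval at 46845149 to 46846426 overlapped it, with 22.7 normalized tags and rank 2149 of 26455. These were the only listed intervals inside the gene. The other 3 intervals in the window lay about 46 kb upstream, where the spans of Hps5 and Gtf2h1 lie next to each other. They were a CLOCK peak (46795995 to 46796199, 10.1 normalized tags, rank 373 of 1378), H3K4me2 with 171.7 and H3K27ac with 135.5 normalized tags, all overlapping. The nearest gene end to that CLOCK peak was that of Gtf2h1, 3 bp from its centre. The first promoter of Ldha holds E-boxes at bases 106 to 111 and 203 to 208 of the printed sequence, and neither was in a BMAL1, CLOCK or PDX1 peak.

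Slc16a1 encodes MCT1 (chromosome 3, 104638664 to 104658462, plus strand), and no other protein-coding gene touched its window. A CLOCK peak at 104638270 to 104638474 had 8.38 normalized tags, a score of 17 against a threshold of 13 tags, and rank 546 of 1378. Its centre lay 292 bp upstream of the start. CLOCK lay within 1 kb of a start at 1 of the 10 genes, this one, against 2.48% of all protein-coding genes. The E-box of the printed promoter, at bases 51 to 56 (chromosome 3, 104638464 to 104638469), lay inside this peak. It was near the end of the peak at 104638474, 200 bp upstream of the start, and away from the centre. The printed sequence begins at 104638414, so the rest of the peak, including its centre, was not read. Whether another CACGTG lies in that part is unknown. BMAL1 had no listed peak in the window. The peak was in an H3K4me2 interval of 2183 bp with 108.7 normalized tags (rank 5471). H3K27ac had no interval in the whole window. A further H3K4me2 interval (49.9) overlapped H2A.Z (20.5) about 16 kb beyond the end of the gene, and the remaining H3K4me2 interval, 22725 bp upstream, had 13.9.

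CACGTG was held by 2 of the 12 promoter entries of the 10 genes, against 7.15% of the 32851 promoters in the table. Among promoters with H3K4me2 within 1 kb of the start the motif was held by 9.91%, and among those without by 4.97%. It was held by 47.5% of the 335 promoters that shared at least 1 bp with a CLOCK peak and by 35.7% of the 269 that shared 1 with a BMAL1 peak. Conversely, 6.77% of the 2349 promoters with CACGTG met a CLOCK peak and 4.09% a BMAL1 peak. The motif reads the same on both strands, was searched as exactly these letters, and a match is a description of the letters alone.

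Hk1 and Hk2 encode high-affinity hexokinases, and they differed in PDX1. Hk1 (chromosome 10, 62268855 to 62379920, minus strand) had 5 PDX1 peaks in its window, 2 of them inside the gene. The stronger, at 62344074 to 62344308, had 73.1 normalized tags and rank 91 of 34883, and lay 3770 bp upstream of the second annotated start, within the span of the antisense transcript gene Hk1os. The other, at 62311661 to 62311895, had 48.5 normalized tags and rank 374. Neither overlapped H3K4me2 or H3K27ac, although an H3K4me2 interval of 12.0 normalized tags (rank 29455) began 31 bp from the end of the weaker one. The H3K4me2 interval nearest to the stronger one was 2748 bp away, and H3K27ac was 68895 bp or more from either. Among the 101 PDX1 peaks with ranks up to 100, ties included, 33.7% overlapped H3K27ac and 28.7% H3K4me2, and among the 506 with ranks up to 500 these shares were 44.9% and 39.3%. The remaining peaks, beyond the 3′ end of Hk1, had 27.1, 12.3 and 10.2 normalized tags, and the last of these overlapped H3K27ac. The 5 peaks summed to 171.2, and 255 of the 21887 protein-coding genes had a larger sum in their windows. These sums were not corrected for window length, which was 211.1 kb at Hk1. The 3 peaks beyond the 3′ end had an end of Tspan15 or Tacr2 as the nearest gene end. The peak of 73.1 was also the only PDX1 peak in the window of the neighbouring gene Hkdc1.

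At the second start of Hk1, H3K4me2 had an interval of 2432 bp with 98.6 normalized tags and rank 6566, with neither H3K27ac nor H2A.Z. The first start had no H3K4me2, H3K27ac or H2A.Z within 1 kb. The printed promoters hold 20 CG dinucleotides at the second start and 1 at the first. H3K27ac in the window (4 intervals, 11.9 to 51.4 normalized tags) lay outside the gene on both sides, and none of these 4 had an end of Hk1 as the nearest gene end. A far larger H3K27ac interval (419.2) had its centre 50586 bp beyond the 3′ end of Hk1, just outside the window. Hk2 (chromosome 6, 82725025 to 82774454, minus strand) had the fewest listed intervals of the 10 genes. They were an H3K4me2 interval at its start with 28.5 normalized tags (rank 20666) and another inside the gene with 16.5. No BMAL1, CLOCK, PDX1, H3K27ac or H2A.Z entry fell in its window, which no other protein-coding gene touched.

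Oat encodes ornithine aminotransferase, a mitochondrial enzyme of amino acid metabolism (chromosome 7, 132557475 to 132576398, minus strand) and was the only one of the 10 with H3K27ac at its start. An H3K27ac interval at 132575663 to 132576679 spanned the start with 102 normalized tags, 100 per kb, at 4.64 times the input and rank 9863 of 29735. H3K4me2 overlapped it with 1 interval on each side of the start, of 47.6 and 27.4 normalized tags. A second H3K27ac interval of similar size (102.8) crossed the 3′ end of the gene and overlapped H3K4me2 (13.5). PDX1 had 2 peaks inside Oat, with 9.2 and 7.15 normalized tags (ranks 17010 and 26071), and neither overlapped a mark. The only H2A.Z interval in the window (22.7) lay at an end of the neighbouring gene Lhpp.

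Acot7 encodes an acyl-CoA thioesterase (chromosome 4, 152178100 to 152271855, plus strand). No entry of any of the 6 lists had its centre inside its span of 93756 bp. All 21 entries of the window lay outside the gene and had another gene's end as the nearest one. They comprised 10 H3K4me2, 2 H3K27ac and 6 H2A.Z intervals and 3 PDX1 peaks, and 6 other protein-coding genes touched the window. The largest was an H3K4me2 interval of 161.9 normalized tags (rank 2035), 19723 bp beyond the end of the gene near Hes3, a repressor gene of the HES family, overlapped by H3K27ac (142.2), PDX1 (11.2) and H2A.Z (7.56).

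**Figure D3:**
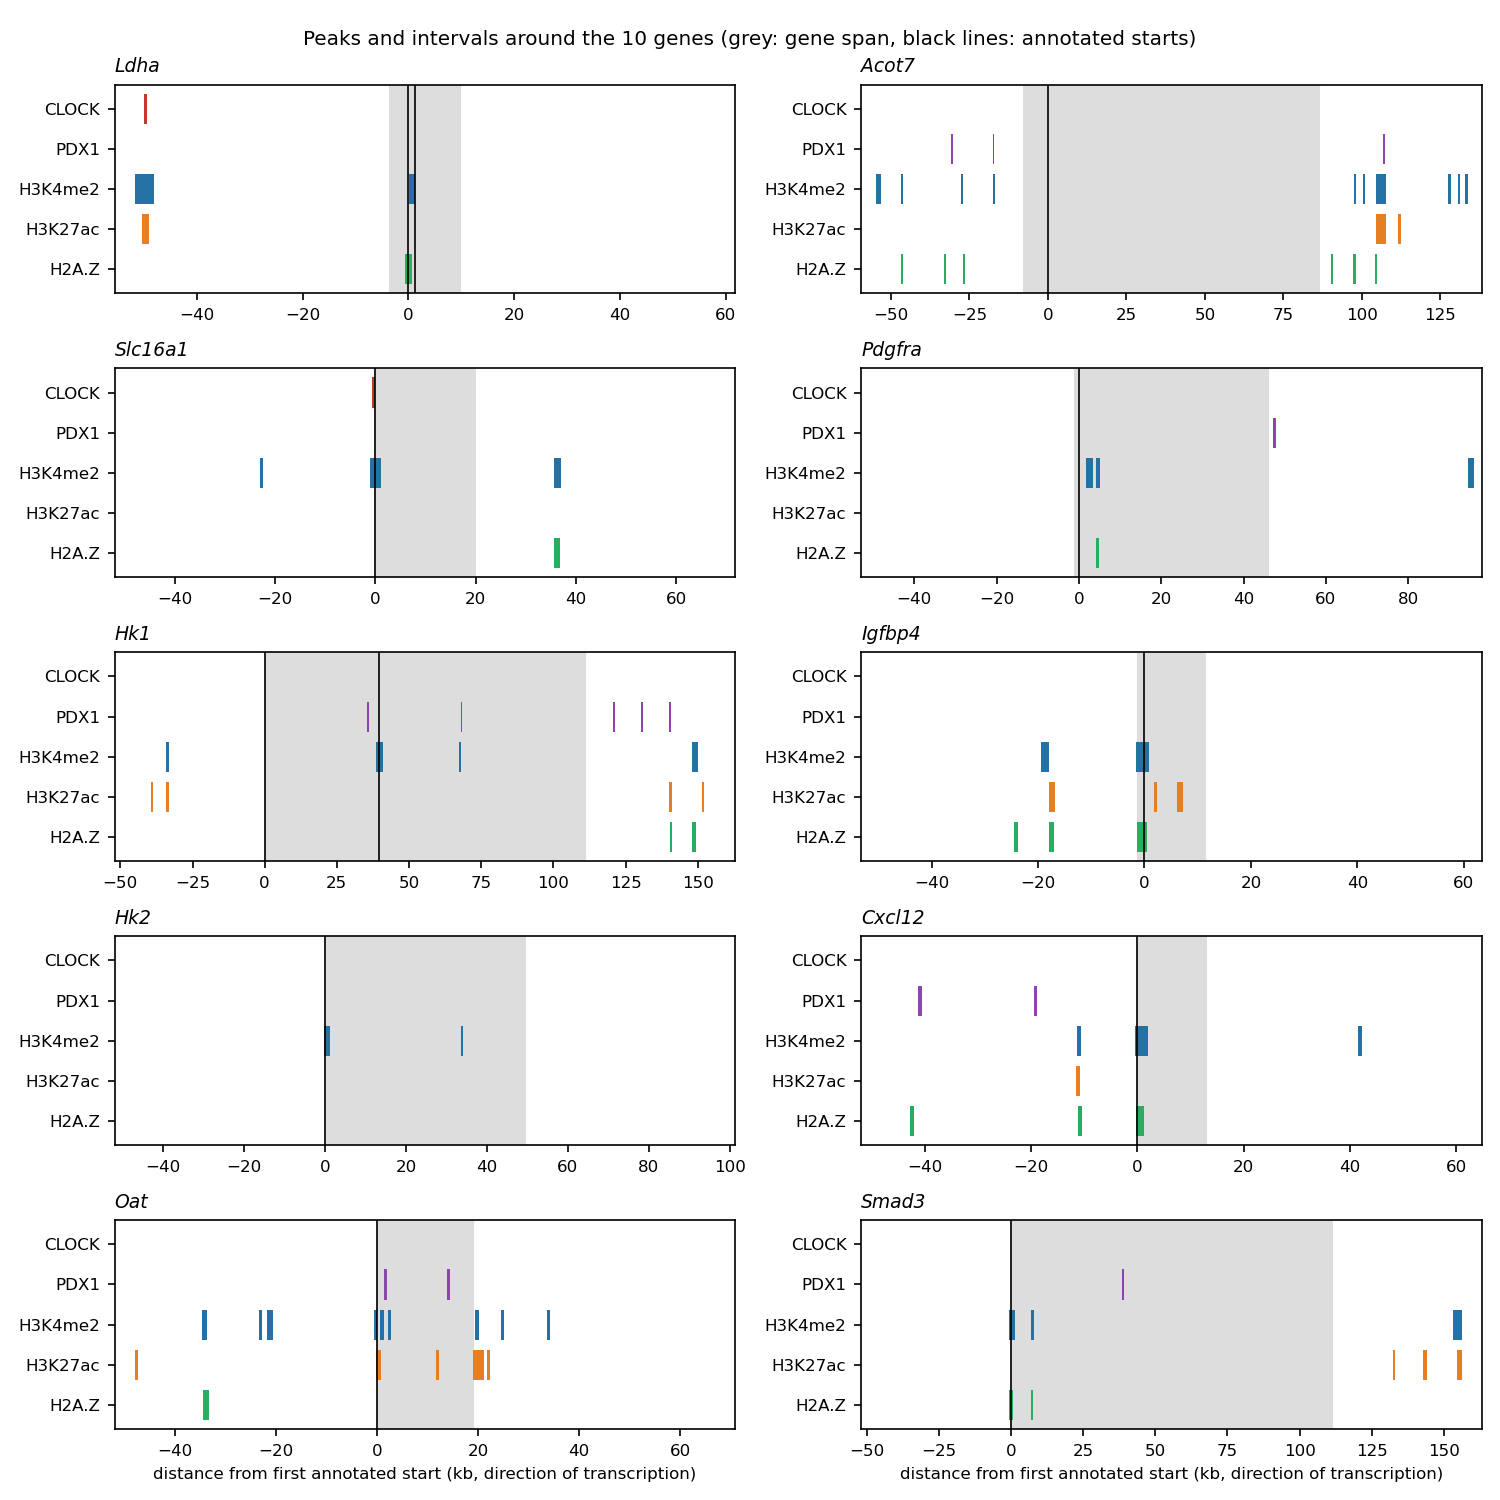
Positions of CLOCK, PDX1, H3K4me2, H3K27ac and H2A.Z entries around each of the 10 genes, against distance in kb from the first annotated start in the direction of transcription; bars are drawn at least 0.6 kb wide, grey marks the gene span and black lines the starts. BMAL1 had no entry in these windows. H3K4me2 sits on the start in most panels, while the Acot7 span is empty.

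Pdgfra encodes a receptor for platelet-derived growth factors and marks mesenchymal cells (chromosome 5, 75151322 to 75198206, plus strand). Its H3K4me2 lay inside the gene and downstream of the start, in intervals of 45.4 (75153909 to 75155644) and 69.3 normalized tags (75156494 to 75157371). The second overlapped H2A.Z (10.8, rank 8209). H3K27ac had no interval in the window. A PDX1 peak 1533 bp beyond the end of the gene had 7.15 normalized tags. An H3K4me2 interval of 70.5 lay 49358 bp beyond the end, the entry closest to the edge of any window from inside, and the closest outside was a PDX1 peak of 7.67 at 50078 bp from Oat.

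Igfbp4 encodes a secreted protein that binds insulin-like growth factors (chromosome 11, 99040005 to 99052655, plus strand). Its start had the most H3K4me2 (147.7 normalized tags, rank 2670) and the most H2A.Z (36.2, rank 594) among the starts of the 10 genes. H3K27ac was absent there and present further inside the gene, in intervals of 16.4 (99042960 to 99043588) and 29.0 normalized tags (99047311 to 99048423), neither on H3K4me2. The larger H3K27ac interval of the window (112.4) overlapped H3K4me2 (62.2) and H2A.Z (16.2) at the neighbouring gene Top2a. No factor peak was listed in the window.

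Cxcl12 encodes a chemokine, the ligand of CXCR4 (chromosome 6, 117168535 to 117181368, plus strand). H3K4me2 (94.1 normalized tags, rank 7088) and H2A.Z (29.2, rank 1150) overlapped at its start. About 11 kb upstream, H3K27ac (22.3), H3K4me2 (9) and H2A.Z (13.5) lay together at 117157037 to 117158127, and this was the only H3K27ac in the window. PDX1 had 2 peaks upstream, of 9.2 and 7.15 normalized tags, neither in a mark. No other protein-coding gene touched the window, and a larger H3K27ac interval (416.2) had its centre 56065 bp from the gene.

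Smad3 encodes a transcription factor activated by TGF-beta receptors (chromosome 9, 63646766 to 63757994, minus strand). Its start carried H3K4me2 (100.5 normalized tags, rank 6343) and H2A.Z (23.8, rank 1907). A second, smaller pair lay inside the gene, with 26.2 for H3K4me2 and 7.02 for H2A.Z. The 3 H3K27ac intervals of the window, of 49.1, 25.3 and 8.94 normalized tags, all lay beyond the 3′ end, 21454 bp or more from it. A PDX1 peak inside the gene (63719048 to 63719282) had 9.2 normalized tags and overlapped no mark.

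Counted over the windows, BMAL1 was found at 0 of the 10 genes, against 21.3% of all protein-coding genes. CLOCK was found at 2 of the 10, Ldha and Slc16a1 (against 13.1%). PDX1 was found at 6 of the 10, Hk1, Oat, Acot7, Pdgfra, Cxcl12 and Smad3 (against 58.1%), and 3 of them had it inside the gene (against 23.4%). H3K4me2 was found at all 10, against 81.2% of all protein-coding genes. H3K27ac was found at 7 (against 73.0%), the others being Slc16a1, Hk2 and Pdgfra, and H2A.Z at 9, all but Hk2 (against 72.7%). The shares for CLOCK, PDX1 and H3K27ac were near those of all genes. Many of these entries belonged to neighbours: only 7 of the 19 H3K27ac intervals and 23 of the 41 H3K4me2 intervals had an end of one of the 10 genes as the nearest gene end. H3K27ac with its nearest end at the gene was left at 3 genes, Oat, Igfbp4 and Cxcl12 (against 48.7% of all protein-coding genes), an assignment added after the data were seen.

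The sizes and overlaps of the entries were set beside those of their lists, without a test. H3K4me2 intervals of the 10 windows had a median of 45.4 normalized tags, against 28.9 over the list, while H3K27ac intervals had 28.3, against 49.1. H2A.Z intervals had a median of 12.2, against 8.64. Of the 41 H3K4me2 intervals 9 overlapped H3K27ac (51.2% over the list) and 14 overlapped H2A.Z (25.6% over the list). Of the 20 H2A.Z intervals 14 overlapped H3K4me2 (41.0% over the list), and of the 19 H3K27ac intervals 8 did (64.5% over the list). PDX1 overlapped H3K27ac at 2 of 14 peaks and H3K4me2 at 2 of 14 (21.1% and 23.6% over the list). Both CLOCK peaks overlapped H3K4me2 and 1 overlapped H3K27ac (55.4% and 62.8% over the list). The 14 PDX1 and 2 CLOCK peaks are too few to read as differing from their lists. Entries within a window share their locus and are not replicates.

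**Figure D4:**
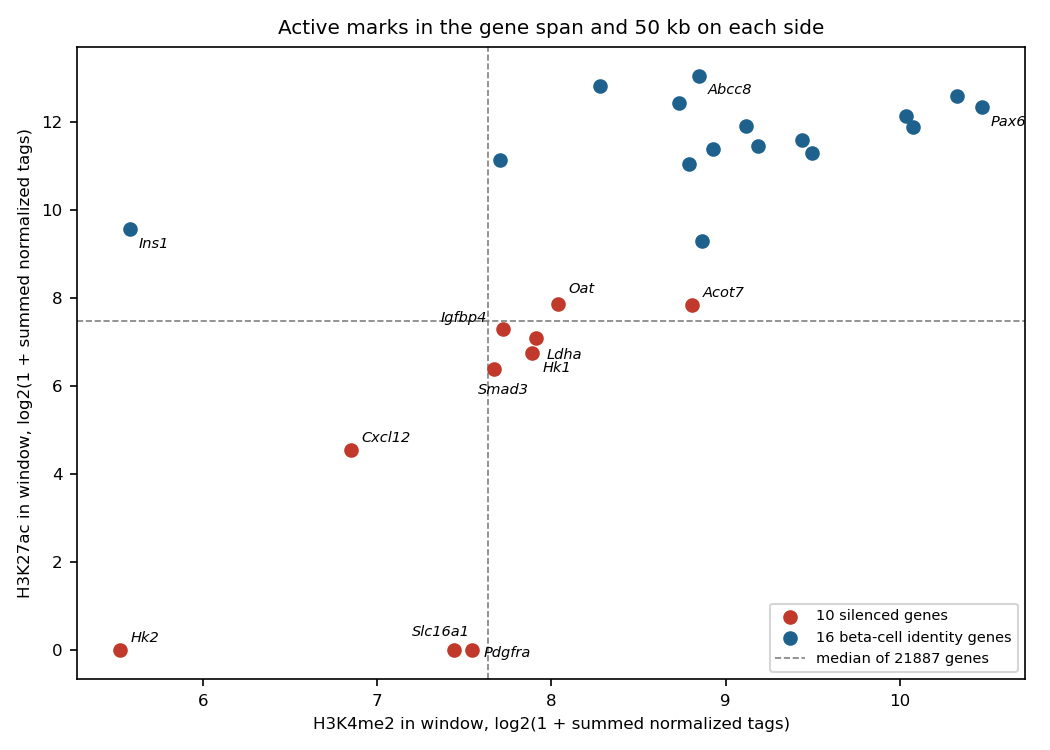
Summed normalized tags of H3K4me2 (horizontal) and H3K27ac (vertical) in the gene span and 50 kb on each side, both as log2(1 + sum), for the 10 genes and 16 beta-cell identity genes; dashed lines are medians of 21887 protein-coding genes. Sums of H3K27ac run from 0 (Slc16a1, Hk2, Pdgfra) to 234.58 (Oat) in the 10 genes and reach 8511.5 (Abcc8) in the identity genes.

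Summed over each window, H3K27ac was 234.58 normalized tags at Oat, 228.6 at Acot7, 157.8 at Igfbp4, 135.5 at Ldha, 107.2 at Hk1, 83.34 at Smad3 and 22.3 at Cxcl12. The remaining 3 genes had none. With 51 kb on each side, a width chosen after the data were seen, the sum at Hk1 was 526.4, the highest of the 10, and the median of the 10 was 124, against 184 in all protein-coding genes. Within 50 kb the median was 95.3 in the 10 genes, 3440 in the 16 beta-cell identity genes and 179 in all protein-coding genes, and the ranges of the first 2 sets did not overlap. Summed H3K4me2 ran from 45 at Hk2 to 446.82 at Acot7, with a median of 206, against 520 in the identity genes and 198 in all protein-coding genes. Windows differ in length, from 112.7 kb at Igfbp4 to 211.2 kb at Smad3.

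The starts with and without H3K4me2 also differed in their sequence. The 9 promoter entries of the 10 genes with H3K4me2 within 1 kb held from 13 CG dinucleotides in 300 bases at the second start of Ldha to 42 at Slc16a1. Between these were 20 at Cxcl12 and at the second start of Hk1, 22 at Oat, 25 at Hk2 and at Smad3, 27 at Igfbp4 and 30 at the first start of Ldha. The 3 entries without it, those of Acot7, Pdgfra and the first start of Hk1, held 6, 5 and 1. At Pdgfra an H3K4me2 interval began 1.658 kb downstream of the start, so its place here depends on the 1-kb limit. Over the whole table the median was 20 in 14509 promoters with H3K4me2 and 3 in 18342 without. Promoters with H3K4me2 had a median of 22 where H3K27ac was present and 17 where it was absent.

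Likeness to other genes was measured over the 6 lists as the Euclidean distance between log2(1 + summed normalized tags). The protein-coding gene closest to Ldha was Tmem52 (distance 0.596). The CLOCK, H3K4me2, H3K27ac and H2A.Z sums were 10.1, 239.5, 135.5 and 22.7 at Ldha, against 7.3, 227.9, 165.3 and 18.3 at Tmem52. All of the CLOCK and H3K27ac and 171.7 of the H3K4me2 at Ldha lay upstream at the ends of Hps5 and Gtf2h1. This likeness therefore rests largely on neighbouring genes. Closest to Slc16a1 was Clspn (distance 0.926). Slc16a1 had sums of 8.38 for CLOCK, 172.5 for H3K4me2 and 20.5 for H2A.Z, against 7.3, 153.7 and 38.9 at Clspn, and neither had H3K27ac.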

How the data were processed

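The submitters' processing notes name Bowtie 1.1.1, HOMER and the build mm10. Peaks were called for each library separately by HOMER findPeaks in the factor style for BMAL1, CLOCK and PDX1 and the histone style for the marks, at 4 times the input or more, per the file headers. 1 pooled input, per the file headers, served BMAL1, CLOCK and H2A.Z, and a second one served the other targets. For H2A.Z the labels conflict: the title of the input gives the same input as the header, while the description of the library names the other input, so which input underlies its folds is uncertain. The deposited normalized tag count is a signal scaled to 10000000 tags per library, and ranks here follow it within a list (ties share the best rank). The authors' score served for the upper 50% of a list, and the deposited fold over input, a ratio, for the filter at 8 times the input. Deposited control tags gave the least detectable H3K27ac. The deposited p-value columns, the focus ratio (a fraction) and the region size were not used.

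Gene spans (RefSeq, GRCm38.p6) and promoter entries gave strand and start for 17492 genes, and both gene ends stood in for the other 4395. Overlap meant at least 1 bp. Genes named beside the 10 were the top 2 of each list by summed H3K27ac, the closest gene to Ldha and to Slc16a1, neighbours, and those said to be named after their values were seen. The genes and lists were chosen with earlier results of these data known. The overlap code was tested on simulated intervals. Alternatives were windows of 10 or 51 kb or the span alone, starts within 5 kb, and stricter lists. Python 3.11.15, NumPy 2.4.6, pandas 2.3.3 and matplotlib 3.10.9 were used.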

Additional observations from a re-analysis of the deposited data

How the results depend on the processing

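Of the 12 counts recomputed, the 2 on BMAL1 were 0 and could not change, because their alternatives only remove peaks or shrink windows. The other 10 were recomputed in 42 alternatives, of which 19 stayed within 1.5 times. Shares of all protein-coding genes stand in parentheses. Within 10 kb of the span, CLOCK was left at 1 gene (6.33%) and H3K27ac at 2 (57.2%), and 0 CLOCK and 0 PDX1 peaks overlapped H3K27ac. Inside the span alone, CLOCK was at 0 genes (3.25%), PDX1 at 3 (23.4%), H3K27ac at 2 (40.6%) and H2A.Z at 5 (33.3%). With only the upper 50% by score of each list, PDX1 was at 2 genes (38.6%), and 5 starts had H3K4me2 (41.9%). At 8 times the input or more, 0 genes had CLOCK (7.42%), 3 PDX1 (49.1%), 3 H3K4me2 (40.5%), 3 H3K27ac (53.2%) and 4 H2A.Z (40.2%). At that level 0 starts had H3K4me2, 0 H3K27ac and 0 H2A.Z, against 6.62%, 17.6% and 8.11% of all protein-coding genes, and 0 CLOCK and 0 PDX1 peaks overlapped H3K27ac. Within 5 kb of a start, H3K27ac was at 2 genes, Oat and Igfbp4 (45.0%). H3K4me2 was then at 9 genes (61.5%) and H2A.Z at 5 (39.6%), both now including Pdgfra. Counting a peak only for the gene with the nearest end, added after the data were seen, CLOCK was at 1 gene (4.47%) and H3K27ac at 3 (48.7%). With windows of 51 kb, also added later, the median summed H3K27ac of the 10 genes was 124, against 95.3 with 50 kb. No paired analysis was possible because each target had 1 library. Depth limits the lists to regions above their tag thresholds.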

Other observations

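Ldha had no BMAL1 peak in its window, whereas Ldhb, which encodes the lactate dehydrogenase subunit that favours pyruvate, had one at its start. The other lactate dehydrogenase genes examined, Ldhc and Ldhd, had 2 and 1 BMAL1 peaks in their windows. Neither had one within 1 kb of a start. Of all protein-coding genes, 21.3% had BMAL1 in the window and 2.21% within 1 kb of a start. All genes compared here were named after their values were seen. The BMAL1 peak at the start of Ldhb (chromosome 6, 142507031 to 142507361) had 11.6 normalized tags (rank 610 of 4125). A further BMAL1 peak (21.7, rank 116) and a CLOCK peak (21.8, rank 80 of 1378) overlapped each other on H3K27ac at the far side of the window, nearest to an end of Gys2. The start of Ldhb had H3K4me2 and H2A.Z without H3K27ac, as did that of Ldha. Slc16a1 had 0 PDX1 peaks in its window, against 5 at Slc16a7, which encodes another carrier of the MCT family and had H3K4me2 and H2A.Z without H3K27ac at its start. Of the other MCT genes examined, Slc16a3 had 1 PDX1 peak and Slc16a8 had 0, and neither had any of the 3 marks at its start. PDX1 was in the window of 58.1% of all protein-coding genes, so a count of 0 is common. These peak counts were not corrected for window length. Cxcr4, the receptor gene of the CXCL12 ligand, also had H3K4me2 and H2A.Z without H3K27ac at its start, while Ackr3, the other CXCL12 receptor gene, had none of the 3 marks there. Smad2 and Smad4 had all 3 marks at a start, and Smad7 had H3K4me2 and H3K27ac without H2A.Z.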
